A study of Mus musculus with 4 samples.

Results

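Potassium channel genes were followed in the left ventricle of mice on Day 7 after myocardial infarction (MI), on 4 Agilent one-colour arrays. The genes were all those whose name in the scanner files begins with Kcn, the gene symbol root of potassium channel pores and several of their auxiliary subunits, and each was represented by its brightest probe. This gave 87 genes, carried by 129 probes, of 27371 gene names in all. The arrays came from mice aged 8 to 10 weeks on a C57BL/6 background, all labelled male although sex-linked genes on WT 2 and KO 2 went against that label (values below), 2 arrays from wild-type (WT) mice and 2 from KDM5B-deficient (KDM5B-KO) mice, whose Kdm5b gene carries a CRISPR/Cas9 deletion in the JmjC domain, the part of the enzyme that removes methyl groups from lysine 4 of histone H3. Every mouse had its left anterior descending coronary artery tied, no uninjured heart was among the arrays, and the knockout was not limited to any cell type. The arrays are called WT 2, WT 3, KO 2 and KO 3, after the numbers in the titles. Nothing in the sources states that an array of one genotype was matched to the array of the same number in the other.

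Potassium channels let potassium leave the cell and so bring the membrane back to rest after each heartbeat. Voltage-gated pores open on depolarization and carry the transient outward and delayed rectifier currents of the action potential, inward rectifiers hold the resting potential or respond to ATP and acetylcholine signals, two-pore channels carry background current, and a further group opens on a rise in calcium or sodium inside the cell. Many pores work with auxiliary subunits that set their opening and their transport to the membrane. In hearts that have undergone infarction or failure, lower transient outward current and lower amounts of its subunits are well-known features, and macrophages, T cells, fibroblasts and smooth muscle use channels of their own.

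The probes below are shown because they are the reporters for a subunit of the transient outward current (Kcnip2 and Kcnd3) and for the pore of the rapid delayed rectifier (Kcnh2). Positions are those in the scanner files, on build mm9, and where a position falls within exons was not annotated here. The Kcnip2 probe lay at chr19:45868494-45868553 on the minus strand. The Kcnd3 probe had 60 bases over a span of 1121 bases, chr3:105469899-105471019 on the plus strand, and the Kcnh2 probe had 60 bases over a span of 273 bases, chr5:23827188-23827460 on the minus strand, so both were split over the genome. Letters are as listed in the scanner files, and none is marked.
Kcnip2 probe: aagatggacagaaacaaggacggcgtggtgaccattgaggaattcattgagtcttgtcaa
Kcnd3 probe: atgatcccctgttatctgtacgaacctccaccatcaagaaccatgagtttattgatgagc
Kcnh2 probe: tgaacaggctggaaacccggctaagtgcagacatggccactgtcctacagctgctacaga

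Promoters are shown for 3 channel genes of the ventricle that went together over the arrays (Kcnd2, Kcna5 and Kcnd3). A further one is that of Kcnt2, the tested Kcn gene with the lowest unadjusted limma p-value between genotypes. Each is the RefSeq sequence of build GRCm38.p6 upstream of a start site, 250 bases long, except that the Kcnt2 sequence stops after 189 bases, where another start of the gene begins. Capitals mark an E-box, CANNTG, which reads the same on both strands. Kcnd2 was at chr6:21215096-21215345 (plus strand), Kcna5 at chr6:126535556-126535805 (minus strand), Kcnd3 at chr3:105451640-105451889 (plus strand) and Kcnt2 at chr1:140245468-140245656 (plus strand).
Kcnd2 promoter: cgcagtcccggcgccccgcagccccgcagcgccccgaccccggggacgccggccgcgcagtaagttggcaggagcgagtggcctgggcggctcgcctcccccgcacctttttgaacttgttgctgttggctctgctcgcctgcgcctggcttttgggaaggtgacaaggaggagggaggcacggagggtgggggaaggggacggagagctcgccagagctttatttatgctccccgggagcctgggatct
Kcna5 promoter: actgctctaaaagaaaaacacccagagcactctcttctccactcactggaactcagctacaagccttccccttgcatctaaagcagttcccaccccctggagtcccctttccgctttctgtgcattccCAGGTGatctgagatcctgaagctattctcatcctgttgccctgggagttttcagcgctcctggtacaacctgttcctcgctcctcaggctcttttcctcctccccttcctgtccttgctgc
Kcnd3 promoter: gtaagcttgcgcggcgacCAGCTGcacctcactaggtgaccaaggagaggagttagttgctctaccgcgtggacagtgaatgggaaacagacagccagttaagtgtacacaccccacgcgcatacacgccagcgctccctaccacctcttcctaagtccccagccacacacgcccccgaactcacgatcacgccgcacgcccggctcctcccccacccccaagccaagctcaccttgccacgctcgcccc
Kcnt2 promoter: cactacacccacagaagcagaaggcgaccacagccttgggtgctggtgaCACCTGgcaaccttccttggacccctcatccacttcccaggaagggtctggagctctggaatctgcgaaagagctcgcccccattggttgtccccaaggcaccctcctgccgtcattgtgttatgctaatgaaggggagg

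The Kcna5 sequence held 1 E-box beginning 122 bases before the start, Kcnd3 held 1 at 232 bases, and the Kcnt2 stretch held 1 at 140 bases before its end. None was found in the Kcnd2 window. E-boxes stood in 66.2% of all 32851 promoters of this length, and in 35 of the 50 promoters of tested Kcn genes (37 genes had an entry). Of the other motifs searched on both strands, TATAAA was in 12.4% of all promoters and in 1 of 50 here, AGATAA (a zinc-finger factor site) in 9.99% and in 1, TGACTCA (an AP-1 site) in 4.46% and in 1, TGACGTCA (a CRE) in 1.55% and in 0, and the MEF2 site in 2.92% and in 1. The 4 promoters printed held none of these. The CG dinucleotide, where DNA is methylated, was found 22 times in the Kcnd2 sequence and 18 times in that of Kcnd3 but 3 times in that of Kcna5, beside a median of 6 over all promoters and 8 over those of tested Kcn genes. Promoter letters thus differed among genes whose signals had the same order over the arrays. These matches are descriptions of the sequence alone.

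Signal is given throughout as log2 of the processed signal relative to the 75th percentile of the same array, which compares one gene over arrays but not one gene with another. Where 4 values of a gene follow each other unlabelled, they are those of WT 2, WT 3, KO 2 and KO 3. A probe counted as well above background where the scanner software marked it so. Of the 87 genes, 42 were well above background on all 4 arrays, 23 on 1 to 3 arrays and 22 on none. Testing required this mark on each array of 1 genotype or of both, which left 51 genes, and the other 36 had no usable level, among them Kcnj5, a pore of the acetylcholine-activated current (well above background on 1 array), and Kcne2, Kcnk2 and Kcnc1 (on 0 arrays). By class, 19 of 37 voltage-gated pores, 11 of 14 inward rectifiers, 3 of 11 two-pore channels, 6 of 8 calcium- or sodium-activated pores and 11 of 16 auxiliary subunits were tested, with Kcnq1ot1, an antisense RNA of the Kcnq1 locus, as the last.

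The array values carried facts that bear on every result. The share of probes well above background was 68.1% to 72.0% over the arrays, and the 75th percentile of signal ran from 608 on KO 2 to 976 on WT 3. All arrays lay on 1 slide, the WT arrays and the KO arrays at adjoining positions, so slide position and genotype cannot be told apart. Although all 4 mice are labelled male, Xist, the RNA of the inactive X chromosome, read 4.36 on WT 2 and 3.997 on KO 2 but -8.01 on WT 3 and -7.78 on KO 3, and the Y-linked Eif2s3y read 1.48 on WT 3 and 1.51 on KO 3 but -6.38 on WT 2 and -6.10 on KO 2. The array numbers went with these sex-linked genes, so number and apparent sex cannot be told apart. Many KO results are therefore also given within each array number. Kdm5b itself read -0.87 (WT 2), -1.81 (WT 3), -2.40 (KO 2) and -2.26 (KO 3), lower on both KO arrays than on both WT arrays, with a difference of -0.996 ± 0.40 (SE, n = 2 arrays per genotype), of -1.53 at number 2 and of -0.46 at number 3.

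No potassium channel gene passed the test between genotypes. With limma and Benjamini-Hochberg adjustment over 28304 probes, 0 of 51 Kcn genes had an adjusted p under 0.05 with a fold over 2. The share was 0% of all probes tested, and no adjusted p was below 0.9999. Kdm5b, the gene altered in the KO mice, was well above background on all 4 arrays and was not called either, with an adjusted limma p of 0.9999. Kcnt2 was the 1 Kcn gene with an unadjusted limma p under 0.05, against 1.59% of all 18449 genes tested. The mean difference, KO minus WT, was above 0 for 28 and below 0 for 23 Kcn genes, and its median was 0.07, beside 0.02 over all genes. Upward, a fold over 2 was reached by 1 Kcn gene, Kcnc2 (1.13% of all genes). Downward, it was reached by 2, Kcna2 and Kcnma1 (2.67% of all genes). Each of these 3 was not well above background on at least 1 array. Each passed the filter only through the genotype where it was higher, so these folds are not results apart from that filter. Kcnc2, a fast voltage-gated pore, read -6.69, -5.32, -4.43 and -5.56, with WT 2 not well above background, and Kcnma1, the pore of the large-conductance calcium-activated channel, read -5.34, -5.76, -7.72 and -5.52, with KO 2 not well above background. The groups overlapped for both. With 2 arrays per genotype an exact permutation test of a single gene cannot go below a two-sided p of 0.333, and n is too small for absence of a difference to be read from these p-values.

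Few channel genes kept the genotypes apart. For 2 of 51 genes, Kcne3 and Kcnmb2, the KO arrays were the highest pair, which held for 12.9% of all genes. For 4, Kcnt2, Kcnj10, Kcns3 and Kcna2, the KO arrays were the lowest pair, which held for 10.7%. Kcnmb2 and Kcna2 passed the filter only through the genotype where they were higher, so their separation is not a result apart from that filter. With normexp background correction 15 genes were above and 2 below, beside 26% and 6.34% of all genes. Leaving out KO 3 raised the counts to 30 above and 16 below, beside 45.2% and 44.4% of all genes, and leaving out KO 2 gave 8 above and 26 below, beside 39.3% and 34.5%.

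Kcnt2, the pore of a potassium channel opened by sodium, read -0.99 (WT 2), -0.81 (WT 3), -1.55 (KO 2) and -1.72 (KO 3). Both KO arrays were below both WT arrays, and each genotype's arrays lay close together. The difference was -0.74 ± 0.22 (SE, n = 2 arrays per genotype), a KO/WT ratio of 0.599, with an unadjusted limma p of 0.0318 that became 0.9999 on adjustment. The second Kcnt2 probe, read from another part of chromosome 1, gave -0.86 at number 2 and -0.67 at number 3, and the brightest probe gave -0.56 and -0.91. Without any one array the Kcnt2 difference ran from -0.83 to -0.65. As both KO arrays were below both WT arrays, its sign could not change when 1 array was left out.

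Kcne3, an auxiliary subunit that binds Kcnq1 and other voltage-gated pores, had the opposite arrangement. It read -2.84 (WT 2), -2.40 (WT 3), -2.09 (KO 2) and -1.74 (KO 3), with both KO arrays highest. The difference was 0.70 ± 0.29 (SE, n = 2 per genotype), 1.63-fold, with an adjusted limma p of 0.9999. Its 2 probes differed by 0.75 and 0.92 at number 2 and by 0.65 and 0.73 at number 3. Kcnmb2, an auxiliary subunit of the large-conductance calcium-activated channel, read -6.24, -5.67, -5.11 and -5.61 on WT 2, WT 3, KO 2 and KO 3, and was not well above background on WT 2.

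In the remaining separated genes the KO arrays lay farther from each other than the WT arrays did. Kcnj10, an inward rectifier best known from glia, read -3.72 (WT 2), -3.78 (WT 3), -4.63 (KO 2) and -3.97 (KO 3), a difference of -0.55 ± 0.32 (SE, n = 2 per genotype) that turned to 0.05 with normexp background correction. Kcns3, a silent subunit that modifies other voltage-gated pores, read -4.73, -4.64, -5.16 and -4.79 in the same order, and KO 3 was separated from WT 2 by less than the 2 KO arrays from each other. Kcna2, a voltage-gated pore, read -5.22 (WT 2), -5.24 (WT 3), -5.53 (KO 2) and -7.48 (KO 3) and was not well above background on either KO array. It passed the filter through the WT arrays alone, so its lower KO signal is not a result apart from that filter. The adjusted limma p was 0.9999. With the KO signals set no lower than a floor, the WT mean was 1.31-fold above the KO mean. That floor was the lowest signal of any probe well above background on each KO array. It is not a detection limit of the Kcna2 probe. With normexp the Kcna2 difference was 0.28.

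**Figure D1:**
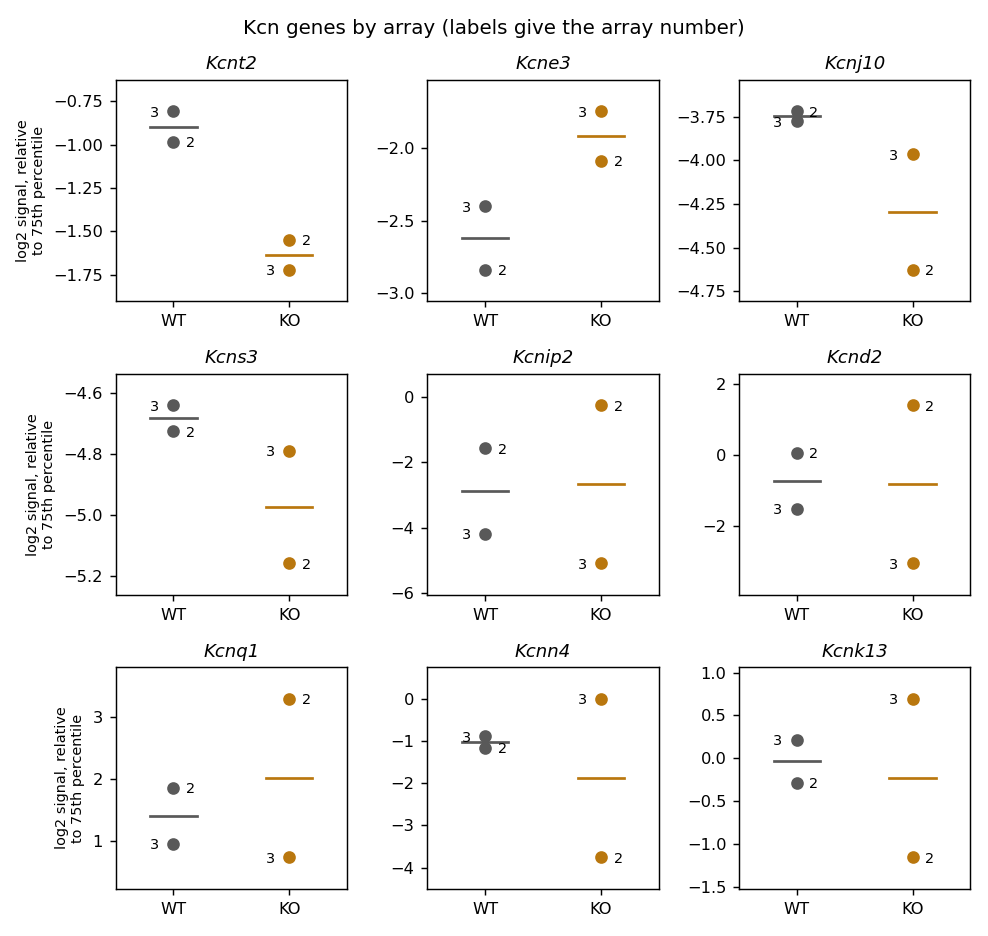
Log2 signal, set against each array's 75th percentile, for 9 Kcn genes, 1 panel each, with WT arrays in grey, KO arrays in orange, the array number beside each point and a line at the mean of the 2 arrays. Kcnt2, Kcnj10 and Kcns3 have both KO arrays below both WT arrays and Kcne3 has both above, while Kcnip2, Kcnd2 and Kcnq1 have KO 2 highest and KO 3 lowest and Kcnn4 and Kcnk13 have the reverse.

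Many channel genes differed one way at array number 2 and the opposite way at number 3. At number 2, 16 of 51 Kcn genes were over 2-fold higher in KO and 6 over 2-fold lower, against 6.77% and 9.73% of all genes. At number 3, 0 were over 2-fold higher and 6 over 2-fold lower, against 2.48% and 1.93% of all genes. KO exceeded WT at number 2 but lay under it at number 3 in 25 of 51 cases (26.4% of all genes) and the reverse in 8 (27.3% of all genes). Among genes well above background on all 4 arrays, 22 of 42 Kcn genes, 52.4%, were highest on KO 2 and lowest on KO 3, where 21.9% of all such genes were, and 3 had the reverse order, where 22.5% of all such genes did. The median KO minus WT of the channel genes was 0.49 at number 2 and -0.22 at number 3, beside 0.02 and 0.01 over all genes.

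**Figure D2:**
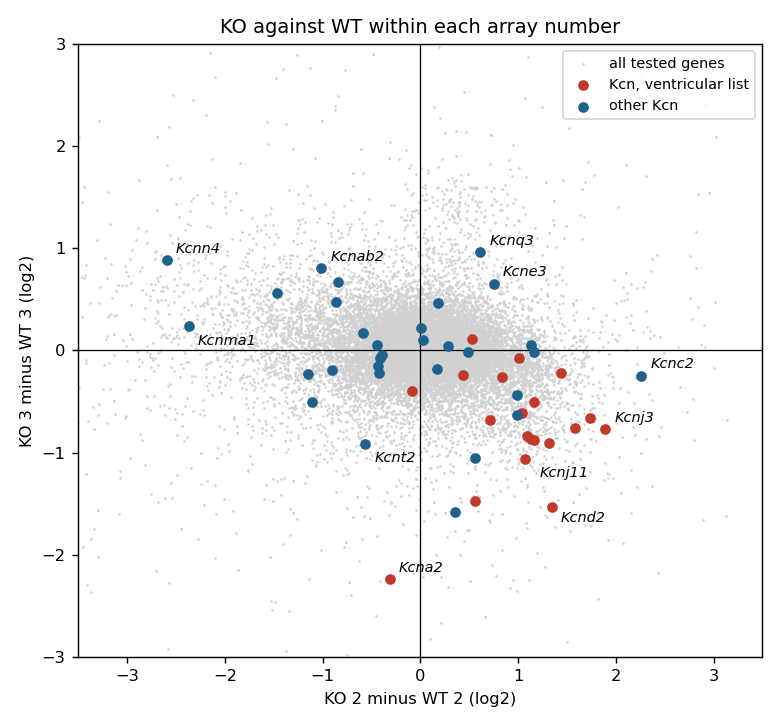
Log2 difference KO 2 minus WT 2 (horizontal) against KO 3 minus WT 3 (vertical) for each tested gene, with all 18449 genes in grey (127 lie beyond the axes), the 20 tested Kcn genes of the ventricular list in red and the other 31 in blue. Of the 20 red points, 17 lie at the lower right, with KO over WT at number 2 and under it at number 3.

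Genes of a list made for ventricular currents accounted for 17 of the 22 genes with KO 2 highest and KO 3 lowest. This list of 24 Kcn genes, the ventricular list, had 20 tested members and 19 well above background on all 4 arrays. Like the marker and partner lists below, it was chosen with earlier results of these data known. The counts for this list are therefore descriptions and not a test of it. The members of the ventricular list are not limited to the ventricle, as it includes Kcnj3 and Kcna5, also known from atria, and Kcnj8, known from vessels and pericytes. Of the 20, 17 (85.0%) had KO over WT at number 2 and under it at number 3, and 17 of the 19 (89.5%) were highest on KO 2 and lowest on KO 3. Outside the list 8 of 31 tested genes had the first pattern and 5 of 23 the second, the latter 21.7% and close to the 21.9% of all genes. The same split of the numbers held within WT, where WT 2 was above WT 3 for 18 of 20 listed genes and for 50.6% of all genes. Over the list, the median difference was 0.17 across all arrays, 1.08 at number 2 and -0.72 at number 3, and outside it -0.20, -0.39 and -0.01. Leaving out 1 array moved the listed median to -1.23 without KO 2, 1.61 without KO 3, 0.69 without WT 2 and -0.27 without WT 3, so the sign of this median depended on the array left out.

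**Figure D3:**
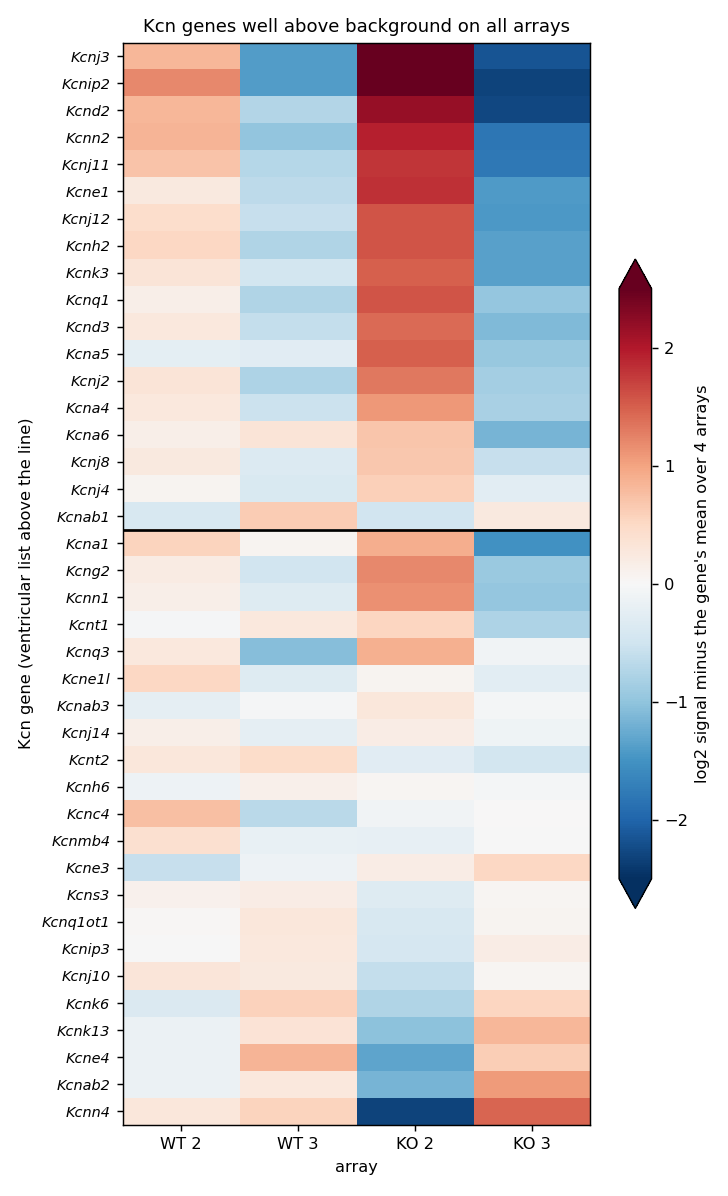
Log2 signal of 40 Kcn genes well above background on all 4 arrays, each gene minus its own mean over the arrays, with arrays in columns, red above and blue below the mean and the colour ending at 2.5 either way. Above the line are 18 genes of the ventricular list, of which 16 are highest on KO 2 and lowest on KO 3, and below it are 22 others, sorted by KO 2 minus KO 3.

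The values by channel class are given as counts and medians, and differences between classes were not tested. Among voltage-gated pores, 12 of 19 tested genes had a mean difference above 0 and 7 below, with medians of 0.22 over all arrays, 0.71 at number 2 and -0.26 at number 3. Inward rectifiers had 8 above and 3 below, with medians of 0.10, 0.44 and -0.19. Auxiliary subunits had 5 above and 6 below and medians near 0, of -0.11, -0.08 and -0.02. The 6 calcium- or sodium-activated pores had 2 above and 4 below, with medians of -0.49 over all arrays, -0.0035 at number 2 and -0.73 at number 3. The 3 two-pore channels had 1 above and 2 below, with medians of -0.20, -0.39 and -0.04. Outside the ventricular list, the genes with KO 2 highest and KO 3 lowest included Kcna1, Kcng2, Kcnn1 and Kcnt1. Over all tested members the mean difference ran from -1.27 for Kcna2 to 1.01 for Kcnc2.

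Of the genes of the transient outward current, Kcnip2 and Kcnd2 had KO 2 above KO 3 by 4.83 and 4.45, against a median of 2.55 over the ventricular list, and Kcnd3 and Kcna4 by 2.52 and 1.90. Kcnip2, the calcium-binding partner of the Kcnd pores, read -1.59 (WT 2), -4.19 (WT 3), -0.26 (KO 2) and -5.10 (KO 3), so the KO arrays enclosed the WT arrays. KO exceeded WT by 1.32 at number 2 and was 0.91 below it at number 3 on the log2 scale, and the mean difference was 0.21 ± 2.01 (SE, n = 2 per genotype). Kcnd2, a pore of that current, had the same order.

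Kcnd2 read 0.06 (WT 2), -1.50 (WT 3), 1.40 (KO 2) and -3.04 (KO 3). Its second probe read -0.51, -2.19, 0.88 and -3.49, with the mean difference at -0.10 for the brighter probe and 0.05 for the other, both with KO 2 highest and KO 3 lowest. Kcnd3, the other pore and the gene of the split probe and CG-rich promoter printed above, read -3.87, -4.72, -2.71 and -5.23 over WT 2, WT 3, KO 2 and KO 3. Kcna4, which carries the slow part of the current, read -3.43, -4.23, -2.60 and -4.50. All 4 genes thus shared the order KO 2, WT 2, WT 3, KO 3 from high to low, at different spreads.

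The delayed rectifier genes followed. Kcnq1, the pore of the slow delayed rectifier, read 1.85 (WT 2), 0.95 (WT 3), 3.28 (KO 2) and 0.73 (KO 3), and its partner Kcne1 read 1.33, 0.42, 2.91 and -0.34. Kcnh2, the pore of the rapid delayed rectifier, read -0.99, -2.26, 0.05 and -2.87. In these 3 genes KO 2 stood above every other array, by more than 1 log2 unit over WT 2. Kcna5, a fast delayed rectifier pore strongly used in atria, read -1.09, -1.13, 0.65 and -1.79, so that the WT arrays lay almost together and KO 2 stood farthest from them.

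Among inward rectifiers, Kcnj2 and Kcnj12, pores of the current that holds the resting potential, read -3.91, -5.01, -2.91 and -5.09 and -0.12, -1.13, 1.01 and -1.99 on WT 2, WT 3, KO 2 and KO 3. Kcnj11, a pore of the ATP-sensitive channel of heart muscle, read -0.92, -2.35, 0.15 and -3.42, over 2-fold higher in KO at number 2 (1.07) and over 2-fold lower at number 3 (-1.07). Kcnj8, the ATP-sensitive pore of vessels and pericytes, varied less, at 3.43, 2.85, 3.87 and 2.61. The order was the same in these 4 genes.

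Kcnj3, a pore of the acetylcholine-activated channel of atrial and nodal cells, had the largest distance between the KO arrays, with -2.55 (WT 2), -4.78 (WT 3), -0.66 (KO 2) and -5.55 (KO 3). Its second probe had the same order. Kcnj4, a further pore of the resting current, read -3.25, -3.70, -2.73 and -3.59 and was among the 2 listed genes well above background on all arrays that were not lowest on KO 3, the other being Kcnab1, an auxiliary subunit that speeds inactivation, at -2.02, -0.98, -2.11 and -1.38. Kcnk3, the two-pore channel of background current, read 2.03, 1.23, 3.19 and 0.35, and its second probe gave differences of 1.18 at number 2 and -0.60 at number 3. Kcnn2, a calcium-activated pore of small conductance, read -0.66, -2.499, 0.42 and -3.33. Kcna6, a voltage-gated pore, read -1.55, -1.37, -0.98 and -2.84, with the distance coming mainly from KO 3.

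Cell type markers moved over the arrays with these genes. All 14 markers of cardiomyocytes (Myh6, Myl2, Tnni3, Ryr2, Pln and others) were well above background on every array. Of these, 14 of 14 were highest on KO 2 and lowest on KO 3, beside 21.9% of all such genes. Their mean log2 signal was 6.69 (WT 2), 5.49 (WT 3), 7.69 (KO 2) and 4.72 (KO 3). Their median KO minus WT was 0.98 at number 2 and -0.71 at number 3, beside 1.08 and -0.72 for the ventricular channel list. The log2 of their summed signal ran from 10.2 to 11.2 in WT and from 9.61 to 12.1 in KO. In pieces of tissue, fewer cardiomyocytes and less channel RNA per cardiomyocyte cannot be told apart, and the part of cell content in the channel values was not tested.

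The atrial markers Myl4, Myl7 and Sln were far higher on KO 2 than on the other arrays. Nppa, also on the list, varied less, at 8.81 (WT 2), 8.54 (WT 3), 9.24 (KO 2) and 8.56 (KO 3). Myl7, the atrial myosin light chain, read -0.70 (WT 2), -0.35 (WT 3), 6.39 (KO 2) and 0.23 (KO 3), and Sln, the sarcolipin of atria, read -7.23, -4.95, 5.95 and -2.46, although the labels give left ventricle. Of the 5 atrial markers 3 were well above background on all arrays and Bmp10 on none, and the log2 of the summed signal ran from 8.55 to 8.81 in WT and from 8.57 to 9.52 in KO. Among the channel genes, Kcnj3 and Kcna5, which are known from atria, had the largest KO 2 minus WT 2 of the ventricular list, 1.89 and 1.74. The part of atrial tissue in these values was not tested. Without KO 2, the mean difference was -1.89 for Kcnj3 and -0.68 for Kcna5.

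**Figure D4:**
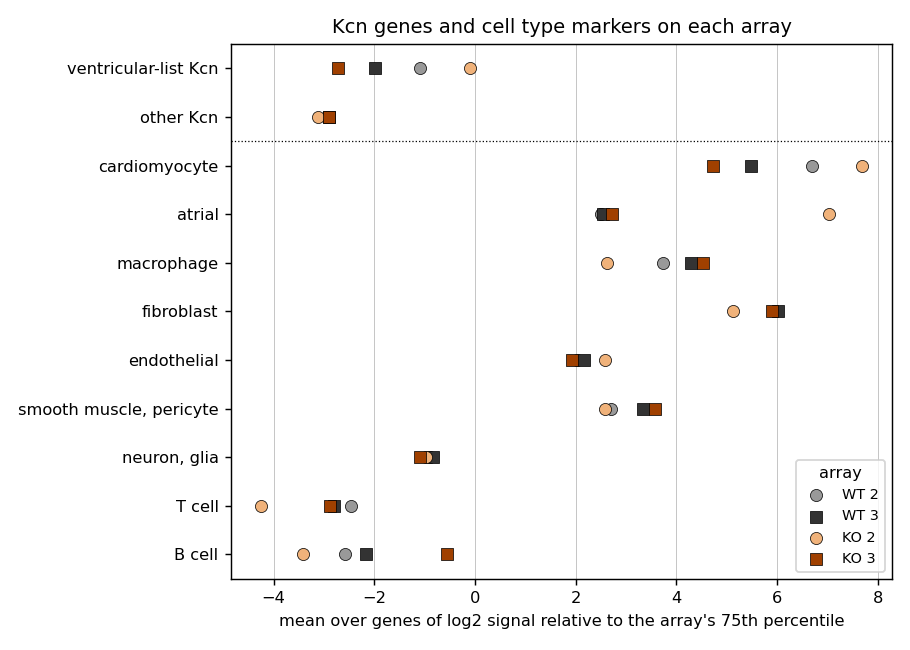
Mean over genes of the log2 signal relative to the 75th percentile for each array, for the tested Kcn genes of the ventricular list and outside it (above the dotted line) and for marker genes of each cell type that were well above background on all arrays (below it). The listed channel genes and the cardiomyocyte markers share the order KO 2, WT 2, WT 3, KO 3 from high to low. The mean of the 3 atrial markers, Myl4, Myl7 and Nppa, is apart on KO 2 only, at 7.03 against 2.49 to 2.71 on the other arrays. Nppa by itself reads 9.24 on KO 2 and from 8.54 to 8.81 on the others.

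Channel genes outside the ventricular list included the 3 with the reverse order. Kcnn4, the intermediate-conductance calcium-activated pore known from macrophages, T cells and fibroblasts, read -1.16 (WT 2), -0.89 (WT 3), -3.76 (KO 2) and 0.00 (KO 3). KO 2 lay far below every other array and KO 3 above them, so KO minus WT was -2.60 at number 2 and 0.89 at number 3, and the mean difference was -0.85 ± 1.39 (SE, n = 2 per genotype). Kcnk13, a two-pore channel found in microglia and other macrophages, read -0.29, 0.22, -1.16 and 0.69. Kcnab2, an auxiliary subunit of Kcna pores, read -1.51, -1.09, -2.53 and -0.29. Kcnk6, a two-pore channel of macrophages, read 1.16, 2.10, 0.77 and 2.06, lowest on KO 2 but highest on WT 3.

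Beside these, all 9 macrophage markers were well above background on every array. Of them 7 were lowest on KO 2 and highest on KO 3, beside 22.5% of all such genes. This order was not particular to macrophage markers. It also held for 4 of 4 B cell markers, 3 of 9 smooth muscle and pericyte markers and 2 of 8 fibroblast markers, and for none on the other lists. The macrophage markers had a mean of 3.73 (WT 2), 4.30 (WT 3), 2.62 (KO 2) and 4.53 (KO 3). Their log2 summed signal ran from 8.41 to 8.62 in WT and from 7.62 to 8.82 in KO. T cell markers averaged -2.47, -2.81, -4.25 and -2.89, lowest on KO 2, and fibroblast markers averaged 5.96, 6.02, 5.12 and 5.89. Endothelial markers averaged 2.03, 2.17, 2.58 and 1.93, smooth muscle and pericyte markers 2.69, 3.33, 2.57 and 3.58, and B cell markers -2.58, -2.16, -3.42 and -0.55. Of 9 markers of neurons and glia 5 were well above background on all arrays, with means from -1.09 to -0.84, while Prph, Snap25 and Th were on none. The part of these cells in the channel values was not tested. Kcne4, an auxiliary subunit that inhibits voltage-gated pores, read -0.53, 0.47, -1.69 and 0.24, again lowest on KO 2. The groups overlapped for Kcnn4, Kcnk13, Kcnab2, Kcnk6 and Kcne4 alike.

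Further genes were at the ends of the ranking by mean difference. Kcnq3, a pore of the neuronal M current, had the largest upward difference among Kcn genes well above background on all arrays, with -3.87 (WT 2), -5.20 (WT 3), -3.26 (KO 2) and -4.23 (KO 3). The KO array was 0.61 above the WT array at number 2 and 0.96 above it at number 3, yet KO 3 lay below WT 2, and the difference of 0.79 ± 0.63 (SE, n = 2 per genotype) had an adjusted limma p of 0.9999. Kcna1, a pore of the Kcna family, read -0.57, -1.06, -0.22 and -2.64, lowest on KO 3. The antisense RNA Kcnq1ot1 was lower on both KO arrays than on the WT array of the same number, by 0.43 and 0.22 with its brightest probe, and its 4 tested probes all gave a negative mean difference, while its other 2 probes were well above background on 0 arrays. Kcnq1ot1 is read from the opposite strand of the Kcnq1 locus, and the mean difference was 0.61 for Kcnq1 and -0.32 for Kcnq1ot1.

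Genes that work with potassium channels without bearing the Kcn name were read from a list of 27, of which 23 were tested and 0 passed the test in either direction. Their median KO minus WT was 0.17 over all arrays, 0.47 at number 2 and -0.12 at number 3. Of 22 well above background on all arrays, 15 were highest on KO 2 and lowest on KO 3, beside 21.9% of all such genes. Abcc8 and Abcc9, the sulfonylurea receptors that complete the ATP-sensitive channel, read 1.82, 0.75, 3.03 and -0.42 and 1.41, 0.27, 2.30 and 0.16 on WT 2, WT 3, KO 2 and KO 3, in the order of Kcnj11 and Kcnj8. Hcn4, the pacemaker channel pore, read -2.66, -2.62, -0.99 and -2.75, high on KO 2 alone, as was Kcna5. Irx3, a transcription factor of the conduction system, was higher in KO at both numbers, by 0.92 and 0.90, with -3.28, -4.36, -2.35 and -3.45 on the arrays, but WT 2 lay above KO 3. Dpp6 and Dpp10, auxiliary proteins of Kcnd pores, differed by -0.00 ± 0.30 and -0.22 ± 0.35 (SE, n = 2 per genotype).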

How the data were processed

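Total RNA of left ventricle on Day 7 after MI was labelled in 1 colour and hybridised to Agilent Whole Mouse Genome arrays. The authors deposited the scanner's processed signal intensity of each spot, which per the file headers was made with Feature Extraction 10.7.3.1 on a grid annotated to mm9, with background subtraction and detrending. A log2 table of these arrays was deposited too, and between 99.90% and 99.96% of its values differed by under 0.01 from quantile-normalized log2 signal, with a median of 6.78 on each array. Its scale is therefore log2 and its direction that of the signal.

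Spots flagged as outliers (92 to 116 per array) and control spots were left out, spots of a probe were averaged, and log2 signal was shifted by the 75th percentile of each array. Of 41174 probes, 12864 were too dim and 6 lacked a value, which left 28304. These were fitted with limma 3.58.1 in R 4.3.3 (lmFit and eBayes, 2 arrays per genotype), with Benjamini-Hochberg adjustment. A call needed an adjusted p under 0.05 and a fold over 2. The fit was tested on simulated data. Group and array number came from the titles. Replicates were not stated to be separate animals, although the sex-linked genes differed between the 2 arrays of each genotype. The p-values measure the spread between these arrays. All 87 genes matched a RefSeq symbol. Promoter sequences are from RefSeq, GRCm38.p6.

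Genes named in the text were those of the ventricular list that passed the filter, the 6 highest and 6 lowest mean differences among genes well above background on all 4 arrays, genes with separated groups and a fold over 2, and genes over 2-fold apart in opposite directions at the 2 numbers. Others, such as Kcnk13, Kcnab2, Kcnk6, Kcns3, Kcnmb2 and Kcnq1ot1, were chosen after their values were seen, as were the sequences printed. The values of 2 genes that this rule takes are not reported here. The members and gene lists were chosen with earlier results of these data known. Alternatives were normexp background correction (offset 50), quantile and median scaling, other filters, the deposited values, the array number as a block, other variance settings, all probes of a gene and leaving out each array.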

Additional observations from a re-analysis of the deposited data

Results flagged for a closer look

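The genotypes went opposite ways at the 2 array numbers, by over 2-fold each way, for 2 tested genes. Kcnd2, a pore of the transient outward current, was 1.34 higher in KO at number 2 and differed by -1.54 at number 3 on the log2 scale, a distance of 2.88. Kcnj11, a pore of the ATP-sensitive channel, differed by 1.07 and -1.07, a distance of 2.14. Each number holds 1 array per genotype, so the difference between the numbers was not tested.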

How the results depend on the processing

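The count of Kcn genes called was 0 under every alternative that kept 4 arrays, as was that of the partner genes, also with a plain test on the unadjusted p. A call needed a fold over 2 as well, which only Kcnc2, Kcna2 and Kcnma1 reached among Kcn genes with the main settings. Genes under that fold could not be called whatever their p. Genes over 2-fold higher and lower in KO (1 and 2) became 0 and 0 with normexp (0.374% and 0.542% of all genes). They also became 0 and 0 with probes well above background on all 4 arrays (0.705% and 1.39%). Without the filter 2 were higher (2.48%), and Kcne2, well above background on 0 arrays, joined Kcna2 and Kcnma1 among the lower (3.15%). Genes separated upward and downward (2 and 4) became 15 and 2 with normexp (26% and 6.34% of all genes) and 8 and 7 of 87 without the filter (11.8% and 9.15%). With the stricter filter 1 was upward (12.9%), and Kcnt2, Kcnj10 and Kcns3 were downward (9.88%). The median difference rose to 0.30 over all Kcn genes and 0.36 over the ventricular list with normexp, which moved the median of all genes to 0.11, and the partner median was 0.027 with quantile scaling and 0.026 with the deposited values. Number 2 alone, chosen after seeing the data as was number 3 alone, gave 16 and 6 genes over 2-fold (6.77% and 9.73% of all genes). Its medians were 0.49 (all), 1.08 (ventricular) and 0.47 (partners). Number 3 alone gave 0 and 6 genes (2.48% and 1.93% of all genes) and medians of -0.22, -0.72 and -0.12.

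Leaving out each array in turn gave from 1 to 20 genes over 2-fold higher, beside 1.17% to 10.7% of all genes. From 3 to 12 were over 2-fold lower, beside 3.12% to 11.2%. From 7 to 30 were separated upward (19.7% to 45.2% of all genes) and from 8 to 26 downward (15.8% to 44.4%). Medians ran from -0.22 to 0.47 over all Kcn genes, from -1.23 to 1.61 over the ventricular list and from -0.23 to 0.75 over the partners. Without KO 2, WT 2, WT 3 or KO 3 the median over all Kcn genes was -0.22, 0.31, -0.12 and 0.47. The difference of genotype means changed sign for 21 of 26 named genes when an array was left out, 35 of 104 values in all. The exceptions were Kcnt2, Kcne3, Kcna2, Kcnj10 and Kcnq3. Of these, all but Kcnq3 had both KO arrays beyond both WT arrays, so their sign could not change in this way. For the genes that changed sign, the ranges follow. The ranges were Kcna1 -1.82 to 0.60, Kcna4 -0.67 to 1.23, Kcna5 -0.68 to 1.76, Kcna6 -1.38 to 0.47, Kcnab1 -0.76 to 0.28, Kcnd2 -2.32 to 2.13, Kcnd3 -0.93 to 1.59, Kcne1 -1.22 to 2.03, Kcne4 -1.66 to 0.27, Kcnh2 -1.24 to 1.68, Kcnip2 -2.21 to 2.62, Kcnj11 -1.78 to 1.79, Kcnj12 -1.37 to 1.63, Kcnj2 -0.62 to 1.56, Kcnj3 -1.89 to 3.01, Kcnj4 -0.11 to 0.75, Kcnj8 -0.53 to 0.73, Kcnk3 -1.28 to 1.56, Kcnn2 -1.75 to 2.00, Kcnn4 -2.73 to 1.02, Kcnq1 -0.67 to 1.88. With all arrays kept, 5 of 285 values changed sign, namely Kcna2 (0.28), Kcnd2 (0.17) and Kcnj10 (0.045) with normexp, and Kcnj8 with quantile scaling (-0.024) and with the deposited values (-0.024). The cause of these moves was not tested.

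With the array number as a replicate block 0 genes were called and no count or median moved. Deviations of the same number from the genotype means had r = 0.56 across genes, which are not independent, but 2 pairs do not show that the numbers pair the arrays. The numbers also went with the sex-linked genes, so a block by number is also one by apparent sex. No slide or scan term could be fitted, as there was 1 slide and 1 scan day. The number of arrays limits precision, and signals near background limit the 9 tested genes not well above it on all arrays.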
